A study of Sus scrofa with 22 samples.

Results

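The genes described here are those of the vitamin K cycle and of the GAS6 receptor system, chosen by name: VKORC1, VKORC1L1, GGCX, GAS6, PROS1, TYRO3, AXL and MERTK. They are 8 genes of 31907 gene identifiers counted in piglet cerebellum, and 7 of the 8 have a row in the count tables. The pig identifier paired with VKORC1 (ENSSSCG00000057004) has no row there, so VKORC1 is named only and not analysed here. The samples were whole pieces of cerebellum from 22 piglets (Sus scrofa). Of these, 11 had bile duct ligation (BDL, 7 females and 4 males): the duct is tied so that bile cannot leave the liver. The other 11 had sham surgery (SHAM, 5 females and 6 males). Surgery was at day 8 of life and the animals were followed for 3 weeks. The sources used here give no breed and do not say which animals shared a litter.

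Vitamin K is a fat-soluble vitamin whose uptake from the gut needs bile. Its reduced form lets the carboxylase GGCX turn glutamate residues of a few proteins into gamma-carboxyglutamate (Gla), which binds calcium and through it the phosphatidylserine of membranes. The epoxide left over is recycled by VKORC1, the target of warfarin, and by its paralogue VKORC1L1. GAS6 and PROS1 (protein S) are Gla proteins that bridge exposed phosphatidylserine to the receptor tyrosine kinases TYRO3, AXL and MERTK, together called TAM receptors. In mouse brain, TYRO3 is known mainly from neurons, and AXL and MERTK from microglia and astrocytes, where they serve the engulfment of dying cells and synapses.

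Libraries held between 14811464 and 20046909 gene counts. The cerebellar labels were checked on cell type markers: all 9 granule neuron markers and all 6 Purkinje cell markers that had a row were detected, with GABRA6 at 353 ± 22 CPM (read counts set relative to library size, with TMM scaling between libraries) in BDL and 383 ± 32 CPM in SHAM (mean ± SD, n = 11 each). Of the choroid plexus markers, TTR differed widely between pieces, from 9.49 to 1395 CPM in BDL and from 1.67 to 863 CPM in SHAM. CLIC6 ran from 0.166 to 29.7 CPM in BDL and from 0.0666 to 11.6 CPM in SHAM. OTX2, also on that list, did not share this spread and ran from 76.4 to 101 CPM in BDL and from 69.0 to 97.9 CPM in SHAM. BDL replicate 2 had the lowest scores of the 22 animals for astrocyte and Bergmann glia markers and for mature oligodendrocyte markers (mean log2 CPM 6.87 and 7.62). In bulk tissue, fewer cells of a type and less RNA per cell cannot be told apart.

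Bile duct ligation against sham surgery asks whether transcripts of this system change in the cerebellum when bile flow is blocked. None of the 7 measured genes passed the test, which was edgeR's quasi-likelihood test with sex in the model and Benjamini-Hochberg adjustment over 14994 genes. All 7 passed the filter on low counts. The test called 0 of the 14994 genes, or 0%, and 4.96% had an unadjusted p under 0.05, against 0 of the 7 members. With limma-voom 0 genes passed and with DESeq2 1, not a member. Of the members, 4 of 7 were on the higher side in BDL, as were 50.3% of all genes, and 3 were on the lower side, with a median log2 fold change of 0.002, beside a median of 0.0006 over all genes. Every BDL range overlapped its SHAM range, but the share of all genes with such an overlap was not counted.

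**Figure D1:**
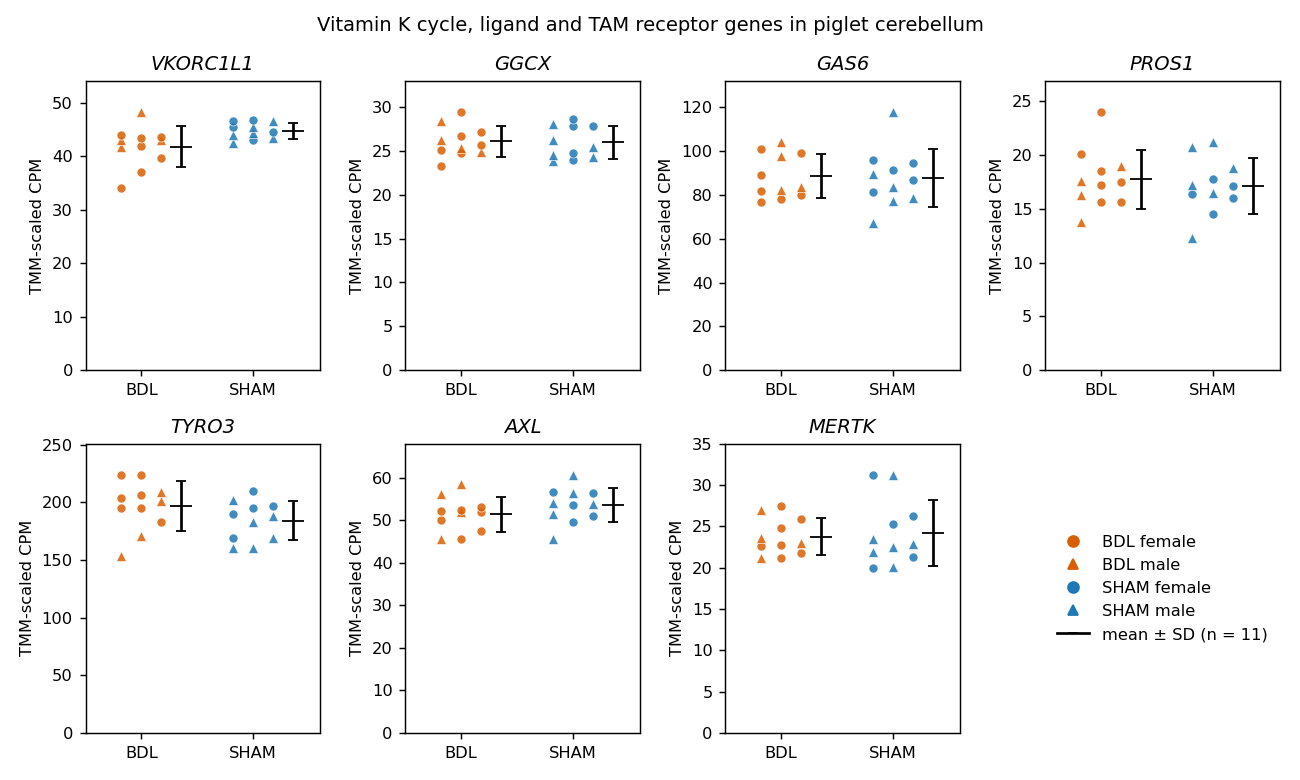
Each point is 1 animal and gives the TMM-scaled CPM of a gene (vertical axis, from 0), with BDL on the left and SHAM on the right of each panel, circles for females and triangles for males; black bars are the mean ± SD of 11 animals. The groups overlap in all 7 panels, and VKORC1L1 spreads from 34.1 to 48.3 CPM in BDL against 42.5 to 46.8 CPM in SHAM.

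VKORC1L1 (ENSSSCG00000028513; chromosome 3, 16691143 to 16764097 on Sscrofa11.1), the paralogous vitamin K epoxide reductase, ran from 34.1 to 48.3 CPM with a median of 43.1 in BDL, against 42.5 to 46.8 CPM with a median of 44.6 in SHAM. The BDL animals lay mostly under the sham level: 10 of 11 were below the SHAM mean and 5 were below the lowest SHAM animal, while BDL replicate 7 was above the highest. The mean was 41.8 ± 3.8 CPM in BDL and 44.8 ± 1.5 CPM in SHAM (SD, n = 11 each). The log2 fold change was -0.09 ± 0.05 (SE), with a 95% confidence interval of 0.876-fold to 1.005-fold. It did not pass edgeR's test (unadjusted p = 0.0670, adjusted p = 0.881), although no other member had a smaller p in this comparison.

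The lowest VKORC1L1 levels belonged to female BDL replicates 2 and 4, at 34.1 and 37.1 CPM. These are also the 2 animals with the lowest astrocyte and Bergmann glia marker score, at 6.87 and 7.08, over a list of which 7 of 8 genes had a row and were tested. That score ran from 6.87 to 7.77 in BDL and from 7.32 to 7.81 in SHAM. Leaving out 1 animal moved the VKORC1L1 log2 fold change between -0.12 ± 0.05 without BDL replicate 7, the highest BDL animal (edgeR unadjusted p = 0.0200, adjusted p = 0.826), and -0.07 ± 0.04 without BDL replicate 2 (unadjusted p = 0.137, adjusted p = 0.968). With the astrocyte score as a covariate, chosen after the values were seen, it was -0.06 ± 0.04 (edgeR unadjusted p = 0.150). The part of tissue make-up in this was not tested. The oligodendrocyte marker score as a covariate gave -0.10 ± 0.05 instead (unadjusted p = 0.0338, adjusted p = 0.763).

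Within the sexes, all 7 BDL females lay below the SHAM female mean of VKORC1L1, at 40.6 ± 3.8 CPM in BDL (n = 7) and 45.3 ± 1.6 CPM in SHAM (n = 5). Their log2 fold change was -0.16 ± 0.06 (edgeR unadjusted p = 0.0191, adjusted p = 0.795; 5.83% of all genes had an unadjusted p under 0.05 in females and 0% passed after adjustment). Males were at 44.1 ± 2.9 CPM in BDL (n = 4) and 44.4 ± 1.5 CPM in SHAM (n = 6), a log2 fold change of -0.01 ± 0.07. Of the 7 members, 3 were on the higher side in BDL males, against 47.5% of all genes, and 0 had an unadjusted p under 0.05, against 4.08% of all genes, of which 0% passed after adjustment. In females 2 of 7 were on the higher side, against 50.5% of all genes. The difference between the sexes, female minus male, was -0.15 ± 0.09 and did not pass (unadjusted p = 0.130, adjusted p = 0.917; 4.60% of genes under 0.05 unadjusted and 0% adjusted). The female minus male difference was positive for 2 of 7 members and for 51.5% of all genes.

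GGCX (ENSSSCG00000027381; chromosome 3, 59202363 to 59219807), the carboxylase itself, had nearly the same level in both groups. It ran from 23.3 to 29.4 CPM with a median of 25.7 in BDL, against 23.8 to 28.7 CPM with a median of 25.4 in SHAM. The log2 fold change was 0.00 ± 0.05, and the interval of 0.930-fold to 1.078-fold bounds the change more tightly than for the ligands. Among the measured members it also had the smallest spread over all 22 animals, a coefficient of variation of 6.78%. Its biological variation in the edgeR fit, 8.23%, was below that of 96% of the 1000 genes nearest to it in abundance, as was that of VKORC1L1 (7.95%) below about 90%.

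GAS6 (ENSSSCG00000009565; chromosome 11, 78848797 to 78880733), the ligand that binds all 3 TAM receptors, ran from 76.9 to 104 CPM with a median of 83.5 in BDL, against 67.2 to 118 CPM with a median of 87.0 in SHAM. The BDL animals fell inside the span of the SHAM animals, whose lowest was replicate 1 and highest replicate 9, both males. The log2 fold change was 0.01 ± 0.08 (0.904-fold to 1.127-fold). Leaving out 1 animal moved it from -0.096 to -0.028 in females and from 0.034 to 0.207 in males. Over these leave-out fits the lowest edgeR p in males was 0.0371 unadjusted and 0.708 adjusted. The unadjusted p in males fell under 0.05 only without SHAM replicate 9, the animal with the highest GAS6. The difference between the sexes ran from -0.264 to -0.090, with a lowest edgeR p of 0.0439 unadjusted and 0.835 adjusted, also without SHAM replicate 9. With all animals, the smallest unadjusted edgeR p of any member was 0.399 in males and 0.130 for the difference between the sexes. GAS6 varied more between animals than 82.8% of the 1000 genes nearest in abundance (biological coefficient of variation 12.7%).

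PROS1 (ENSSSCG00000025463; chromosome 13, 165915298 to 165999118), which encodes protein S, a blood anticoagulant that is also a ligand of TYRO3 and MERTK, was counted least deeply, with 184 to 460 reads per animal. It ran from 13.8 to 24.01 CPM with a median of 17.5 in BDL, against 12.3 to 21.2 CPM with a median of 17.1 in SHAM. BDL replicate 4 was the highest animal and the 2 groups otherwise shared one range. The log2 fold change was 0.05 ± 0.09, with an interval of 0.906-fold to 1.184-fold, the widest of the 7. It was 0.17 ± 0.12 in females and -0.10 ± 0.14 in males, and the difference between the sexes was 0.27 ± 0.18 (edgeR unadjusted p = 0.159, adjusted p = 0.917). Single animals moved these PROS1 values: over all animals from 0.0053 without BDL replicate 4 to 0.095 without BDL replicate 11, in females from 0.095 without BDL replicate 4 to 0.21 without BDL replicate 8, and in males from -0.19 without SHAM replicate 1 to -0.015 without BDL replicate 11.

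TYRO3 (ENSSSCG00000004744; chromosome 1, 129811540 to 129829395), the TAM receptor known from neurons in mice, ran from 154 to 224 CPM with a median of 201 in BDL, against 160 to 210 CPM with a median of 188 in SHAM. Of the BDL animals 8 of 11 were above the SHAM mean, 2 were above its highest animal and 1 was below its lowest. The mean was 197 ± 21 CPM in BDL and 184 ± 17 CPM in SHAM, a log2 fold change of 0.07 ± 0.06 (0.968-fold to 1.141-fold, edgeR unadjusted p = 0.228, adjusted p = 0.881).

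AXL (ENSSSCG00000038806; chromosome 6, 49245802 to 49277917), the receptor for which GAS6 is the ligand, ran from 45.6 to 58.7 CPM with a median of 52.0 in BDL, against 45.7 to 60.8 CPM with a median of 54.0 in SHAM. In BDL 9 of 11 animals were below the SHAM mean, among them all 7 females. The log2 fold change was -0.05 ± 0.05 (0.894-fold to 1.036-fold, edgeR adjusted p = 0.893). It was -0.02 ± 0.05 with the astrocyte marker score as a covariate, chosen after the values were seen.

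MERTK (ENSSSCG00000008103; chromosome 3, 44349377 to 44483400), an engulfment receptor whose loss causes retinal degeneration in rats, ran from 21.1 to 27.4 CPM with a median of 23.0 in BDL, against 19.9 to 31.3 CPM with a median of 22.8 in SHAM. SHAM replicates 2 and 4, at 31.2 and 31.3 CPM, stood above every BDL animal. The log2 fold change was -0.03 ± 0.08 (0.870-fold to 1.096-fold). The plot of fold changes by sex shows all these intervals together.

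**Figure D2:**
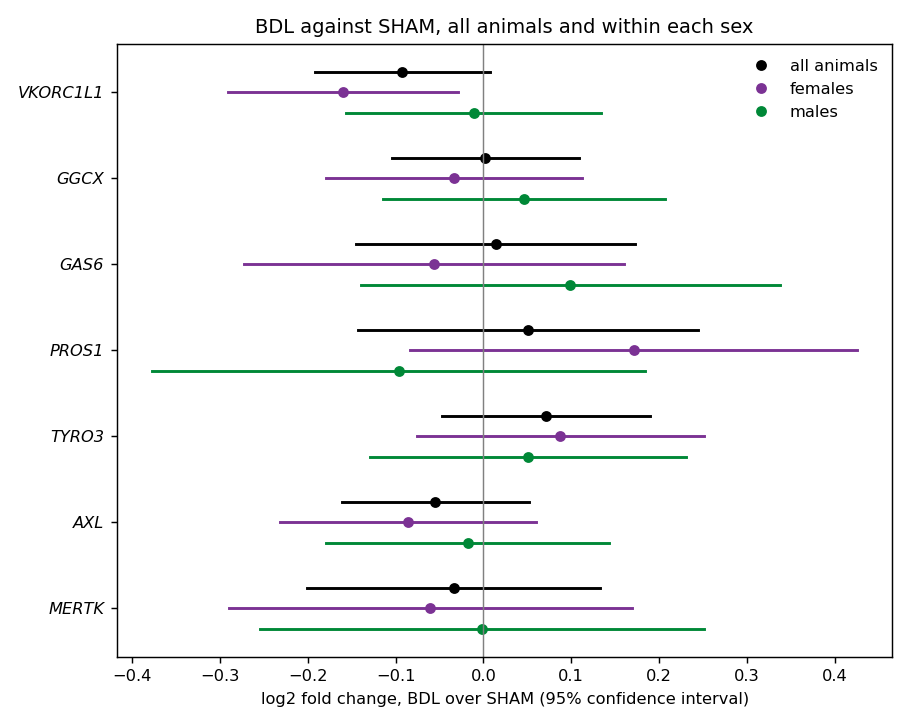
Log2 fold changes of BDL over SHAM (horizontal axis) for each measured gene, with 95% confidence intervals, for all animals (black), females (purple) and males (green). All intervals of the 22 animals and of the males include 0, and that of VKORC1L1 in females runs from -0.29 to -0.03 but does not pass after adjustment (adjusted p = 0.795).

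The balance between members was also compared within each library, which needs no scaling between libraries. The log2 ratio of GAS6 to PROS1 was 2.32 ± 0.30 in BDL and 2.35 ± 0.28 in SHAM (SD, n = 11 each; two-sided permutation p within sex = 0.816). For AXL to MERTK it was 1.11 ± 0.15 in BDL and 1.16 ± 0.22 in SHAM (permutation p = 0.691). For TYRO3 to MERTK it was 3.04 ± 0.20 in BDL and 2.93 ± 0.29 in SHAM (permutation p = 0.413). The BDL piglets above the sham average numbered 4 of 11 for GAS6 to PROS1, 5 of 11 for AXL to MERTK and 9 of 11 for TYRO3 to MERTK. Without SHAM replicate 4 the last count was 6 of 11, and the difference in TYRO3 to MERTK within sex was 0.05, against 0.09 with all animals. None of the 3 ratios differed by more than the spread between animals, and each had an adjusted p of 0.816. These ratios are of read counts, not corrected for transcript length, so they do not rank the genes against each other.

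Sex was the other labelled factor. TYRO3 was at 200 ± 16 CPM in 12 females and 180 ± 20 CPM in 10 males, above the male mean in 11 of 12 females. That is a log2 fold change, female over male, of 0.14 ± 0.06, which did not pass edgeR's test (unadjusted p = 0.0261, adjusted p = 0.774). In this comparison 0.06% of all genes passed after adjustment and 5.95% had an unadjusted p under 0.05, against 0 and 1 of the 7 members, while 4 of 7 members and 49.6% of all genes were on the higher side in females. For the other 6 members the female over male values lay between -0.04, for VKORC1L1, and 0.04, for MERTK.

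Body weight is labelled per animal, with no unit, and ran from 1620 to 2560 (SD 286), at 2044 ± 313 in BDL and 2035 ± 273 in SHAM (n = 11 each). The 2 receptors AXL and MERTK had higher levels in heavier animals, without passing after adjustment. The MERTK slope was 0.12 ± 0.04 log2 units per SD of weight (edgeR unadjusted p = 0.00538, adjusted p = 0.494), and the AXL slope was 0.07 ± 0.02 (unadjusted p = 0.00747, adjusted p = 0.498). Over all genes 0% passed and 7.39% had an unadjusted p under 0.05, against 2 of the 7 members, and 3 of 7 members and 50.3% of all genes had a positive slope. MERTK was at 31.2 CPM in the heaviest animal, SHAM replicate 2, and at 22.6 CPM in the lightest, BDL replicate 4. Other animals departed from the slope. SHAM replicate 4, at weight 2100, had the highest level at 31.3 CPM, and BDL replicate 1, at 2340, had 21.8 CPM.

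Leaving out any single animal kept the MERTK slope between 0.09 and 0.13, with unadjusted p between 0.00227 and 0.0269, the highest without SHAM replicate 2. For AXL it stayed between 0.06 and 0.08, with unadjusted p between 0.00279 and 0.0230. With a slope for each treatment, a comparison chosen after the values were seen, MERTK was at 0.07 ± 0.05 in BDL and 0.17 ± 0.05 in SHAM (unadjusted p of the difference 0.156, adjusted p = 0.999). AXL was at 0.08 ± 0.03 in BDL and 0.07 ± 0.04 in SHAM. The remaining slopes were 0.04 ± 0.03 for VKORC1L1 and between -0.05 and -0.03 for TYRO3, PROS1, GGCX and GAS6.

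**Figure D3:**
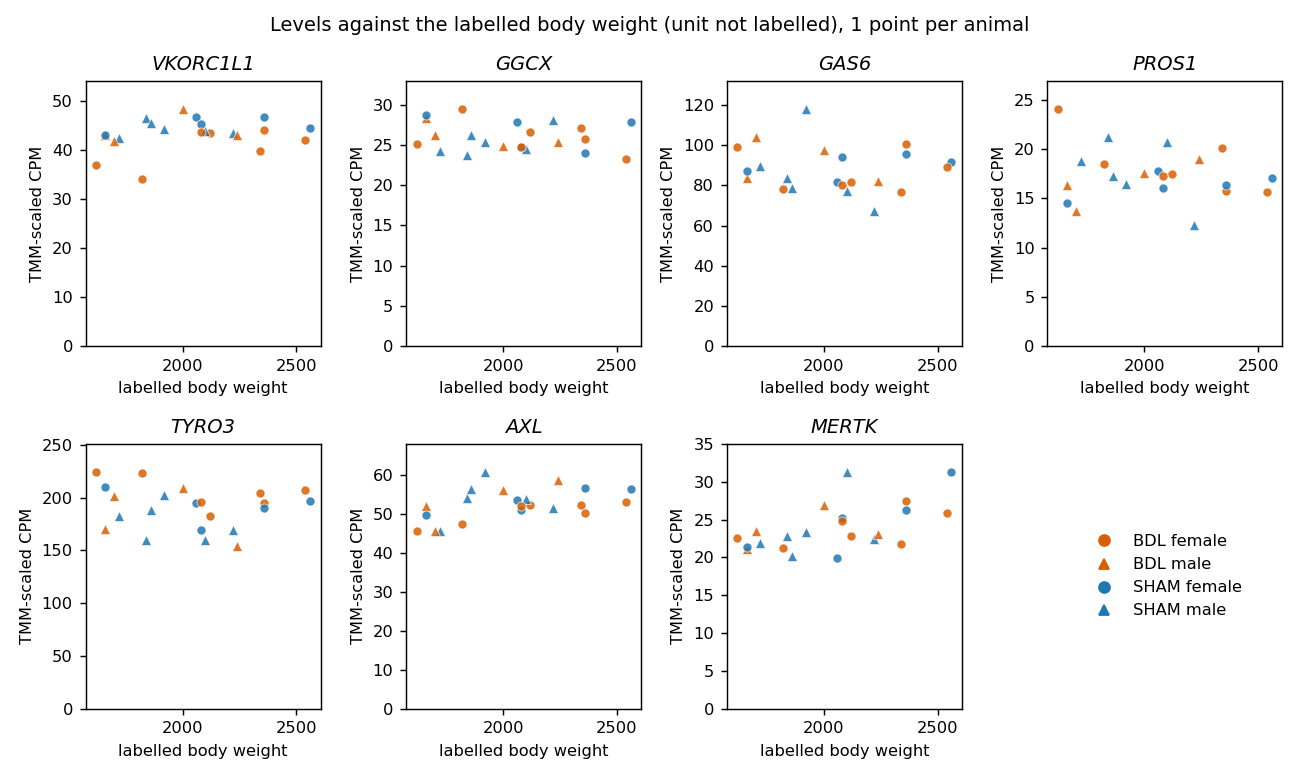
TMM-scaled CPM of each measured gene (vertical axis, from 0) against the labelled body weight (horizontal axis, unit not labelled), 1 point per animal, BDL in orange and SHAM in blue, circles for females and triangles for males. AXL and MERTK lie higher in heavier animals (slopes of 0.07 and 0.12 log2 units per SD of weight), which did not pass after adjustment.

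Relations among the members across animals were then measured. After the means of sex and treatment were removed, 21 pairs were correlated over the 22 animals. The highest Pearson r was 0.54, between VKORC1L1 and AXL (Spearman rho 0.48; permutation p = 0.0104 and 0.0260, adjusted p = 0.219 and 0.267; r = 0.54 without the 2 animals farthest from the median). GGCX and MERTK ran opposite to each other (r = -0.44, rho = -0.58, permutation p = 0.0421 and 0.00603, adjusted p = 0.364 and 0.127). Their r was -0.65 without the 2 animals farthest from the MERTK median. The 2 animals left out were picked anew for each pair. GAS6 and TYRO3 followed with r = 0.42 (rho = 0.36, permutation p = 0.0520 and 0.101, adjusted p = 0.364 and 0.267; r = 0.52 without 2). No pair passed after adjustment. With the sex and treatment means left in, VKORC1L1 and AXL passed by Spearman but not by Pearson (rho = 0.64 and r = 0.60, permutation p = 0.00188 and 0.00291, adjusted p = 0.0395 and 0.0611). The ligands GAS6 and PROS1 had r = -0.03 (rho = -0.24, permutation p = 0.890 and 0.285, adjusted p = 0.935 and 0.499; r = -0.50 without 2). AXL and MERTK had r = 0.28 (rho = 0.32, permutation p = 0.214 and 0.151, adjusted p = 0.450 and 0.352; r = 0.26 without 2).

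Each member was then set beside 11 cell type marker scores and 3 library measures, 98 relations in all, of which 0 passed by Pearson and 1 by Spearman after adjustment. AXL tracked the astrocyte and Bergmann glia score, with r = 0.60 and rho = 0.73 (permutation p = 0.00314 and 0.000210, adjusted p = 0.0769 and 0.0206). It was r = 0.60 within BDL and 0.65 within SHAM (n = 11 each, permutation p = 0.0525 and 0.0294), and 0.54 without the 2 animals farthest from the median. Leaving out 1 animal kept the AXL relation past the threshold by Spearman in 15 of 22 cases; the 7 animals whose removal ended it were BDL replicates 2, 4, 5 and 8 and SHAM replicates 6, 8 and 10, where the adjusted p reached at most 0.0784. The r of VKORC1L1 with the same score was 0.66 (rho = 0.43, permutation p = 0.000910 and 0.0476, adjusted p = 0.0769 and 0.294). It was 0.31 without the 2 farthest animals, and between 0.45 and 0.74 when 1 animal was left out. How far that relation rests on the 2 animals was not tested. Both genes also ran opposite to the share of reads that the counting assigned to no feature. The r was -0.51 for AXL and -0.53 for VKORC1L1 (rho = -0.66 and -0.51, permutation p of r = 0.0166 and 0.0144). The adjusted p of r was 0.172 for each, and r was -0.59 and -0.56 without 2 animals. The part of that share in the results was not tested.

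TYRO3 went with granule neuron markers, at r = 0.63 and rho = 0.62 (permutation p = 0.00170 and 0.00244, adjusted p = 0.0769 and 0.0703; r = 0.56 without 2 animals). Its r was 0.79 within BDL and 0.42 within SHAM (permutation p = 0.00467 and 0.201), a difference that was not tested. PROS1 went with meningeal and fibroblast markers, at r = 0.60 and rho = 0.62 (permutation p = 0.00295 and 0.00287, adjusted p = 0.0769 and 0.0703), and with r = 0.59 within BDL and 0.63 within SHAM. The r of PROS1 was 0.61 without the 2 farthest animals.

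MERTK with microglia and macrophage markers gave r = 0.48 (rho = 0.40, permutation p = 0.0231 and 0.0678, adjusted p = 0.189 and 0.316), and r = 0.35 without 2 animals. It was 0.11 within BDL and 0.69 within SHAM, a difference that was not tested. SHAM replicates 2 and 4, the 2 animals highest in MERTK, ranked 22 and 20 of 22 from the lowest on this score. The strongest relation of GAS6 was with a library measure, the share of reads that the counting left as ambiguous between genes (r = 0.57, rho = 0.43, permutation p = 0.00612 and 0.0481, adjusted p = 0.115 and 0.294; r = 0.36 without 2). That share lay between 5.61% and 6.55% of reads. GGCX had its strongest relation with the share of reads assigned to no feature (r = 0.42, rho = 0.41, permutation p = 0.0492 and 0.0600, adjusted p = 0.223 and 0.309). Without 2 animals its r was 0.44.

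**Figure D4:**
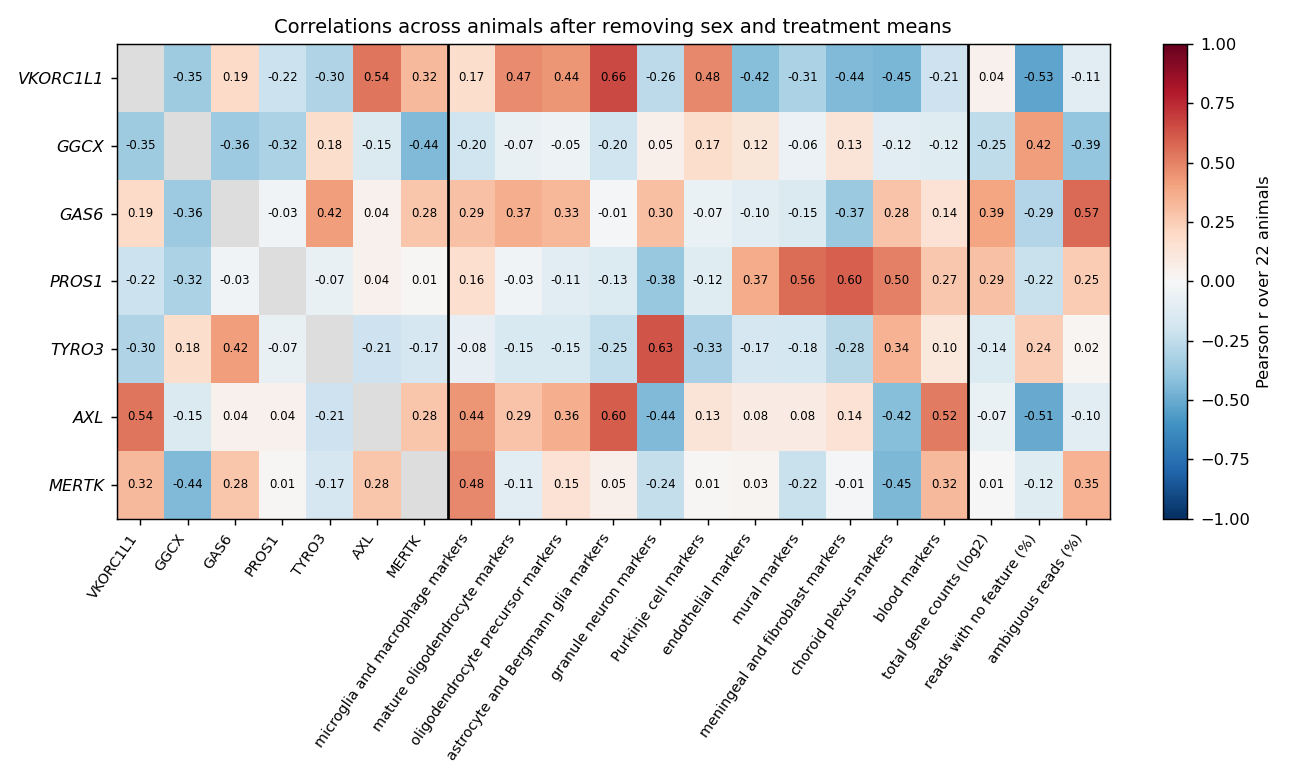
Pearson r over 22 animals, after removing sex and treatment means, of each measured gene (rows) with the other members (left block), with 11 marker scores (middle block) and with 3 library measures (right block); red is positive, blue negative and grey a gene with itself. The warmest cells are VKORC1L1 and AXL with astrocyte and Bergmann glia markers (0.66 and 0.60), TYRO3 with granule neuron markers (0.63) and PROS1 with meningeal and fibroblast markers (0.60).

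The genes most like each member were taken as those with the highest Pearson r over the 22 animals among 12317 genes with a symbol. As they were picked as the highest of many, no p is given. Those named for VKORC1L1 were CPE, a carboxypeptidase of neuropeptide processing (r = 0.81), and KRT222 (0.81). GGCX was closest to SIDT1 (0.81), ZNF623 (0.75) and ADAT1 (0.73). For GAS6 they were CPLX1, the synaptic protein complexin 1 (0.87), RAB11B, a GTPase of recycling endosomes (0.85), and TAF6, a subunit of general transcription factor TFIID (0.84). PROS1 had HFE, a regulator of iron uptake (0.75), CFB, complement factor B (0.74), and SLC16A6 (0.74). TYRO3 had RNF40, a histone ubiquitin ligase (0.81), DDX24 (0.81) and NPLOC4 (0.81). AXL had ZFP36L1, an mRNA decay factor (0.77), TLR4, the lipopolysaccharide receptor (0.77), and LPCAT2, which makes platelet-activating factor (0.73). MERTK had CRTAC1 (0.78), CLEC2B (0.76) and SLC30A3, a zinc transporter of synaptic vesicles (0.71).

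Other genes of the pathway were read from 6 lists holding 65 genes, of which 58 had a row and 51 were tested. None passed, with 26 on the higher side and 25 on the lower side in BDL, where 50.3% of all genes were on the higher side. An unadjusted p under 0.05 was found for 2 of 51, no larger a share than the 4.96% of all genes, so the values of these 2 genes are given as a description. One was AIFM2, which encodes FSP1, an oxidoreductase that reduces vitamin K and ubiquinone. It was at 24.5 ± 3.2 CPM in BDL and 21.3 ± 3.3 CPM in SHAM. Of the BDL piglets, 10 of 11 exceeded the sham average (log2 fold change 0.21 ± 0.09, edgeR unadjusted p = 0.0247, adjusted p = 0.881). The other was ITGAV, the alpha subunit of integrins that bind phosphatidylserine through the bridging protein MFGE8. It was at 87.2 ± 10.8 CPM in BDL and 99.7 ± 4.8 CPM in SHAM. Of the BDL piglets, 2 of 11 exceeded the sham average (-0.19 ± 0.06, unadjusted p = 0.00338, adjusted p = 0.881).

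The list drawn up for vitamin K conversion and reduction split 2 higher and 3 lower (median -0.02), with NQO1, a quinone reductase, at -0.07 ± 0.10. It also holds the cytochrome P450 gene CYP4V2, at -0.06 ± 0.09, for which a role in vitamin K conversion was not tested. Disulfide partners of the epoxide reductase split 4 and 3 (median 0.007), with TMX4 at -0.07 ± 0.05, PDIA4 at 0.05 ± 0.04 and PDIA3 at -0.04 ± 0.04. Lipoprotein carriers and receptors of vitamin K split 2 and 3 (median -0.01), with APOE at 0.07 ± 0.08 and LRP8 at -0.06 ± 0.11. The median over all genes was 0.0006.

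Of the other Gla protein genes 7 of 12 were tested, 3 higher and 4 lower (median -0.004). F2, the prothrombin gene, was at 2.01 ± 0.68 CPM in BDL and 1.54 ± 0.31 CPM in SHAM (0.35 ± 0.19, edgeR unadjusted p = 0.0751). PRRG1 was at 0.14 ± 0.15 and PRRG4 at -0.18 ± 0.21. The clotting factor genes F7, F9 and PROC had 85, 3 and 37 reads over all 22 libraries and were not tested.

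TAM shedding and signalling genes split 8 higher and 5 lower (median 0.009). ADAM10, a protease that sheds cell surface receptors, was at -0.09 ± 0.06 and PIK3CA at -0.09 ± 0.07. Phosphatidylserine bridging and engulfment genes split 7 and 7 (median -0.008), with MEGF10, an engulfment receptor of astrocytes, at -0.17 ± 0.10 and ANO6, a phospholipid scramblase, at 0.14 ± 0.11 beside ITGAV.

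**Figure D5:**
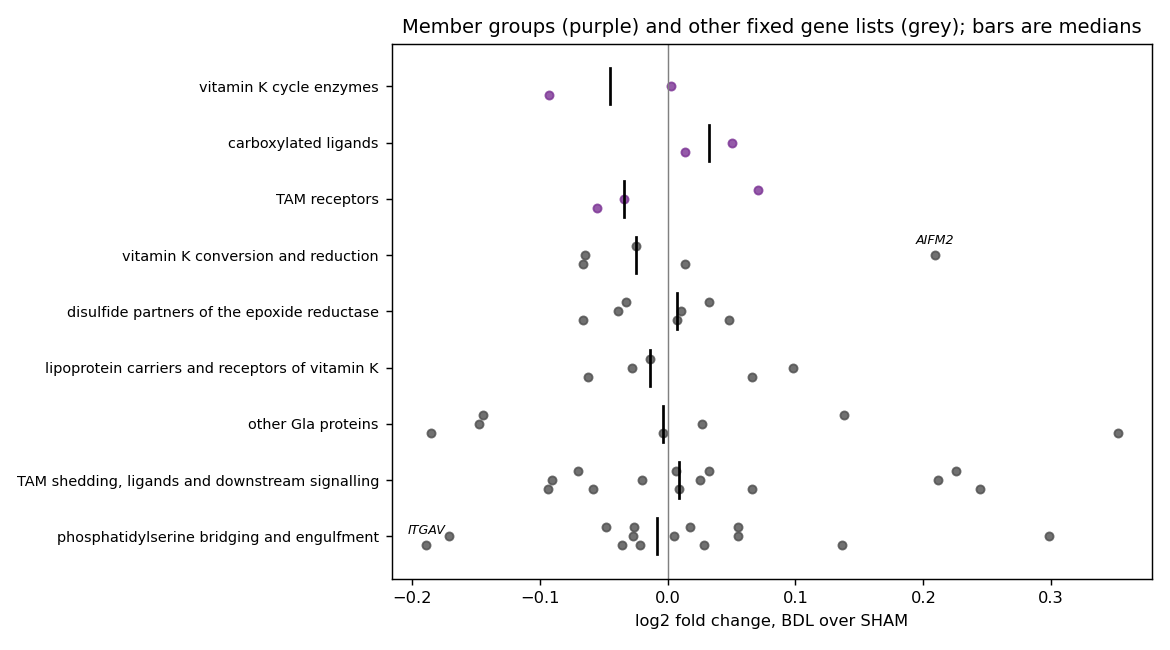
Log2 fold change of BDL over SHAM (horizontal axis) of each tested gene in the 3 groups of members (purple) and the 6 other lists (grey), with a black bar at each list's median and names on the genes with an unadjusted p under 0.05. AIFM2 (0.21) and ITGAV (-0.19) are the 2 named genes, and every list median lies between -0.05 and 0.03.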

How the data were processed

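RNA of whole cerebellum was sequenced as 150 bp read pairs in 22 pigs, per the labels' protocols. Each animal has a table of raw read counts by Ensembl identifier, as the authors deposited it. Tools and build, per the submitters' processing notes, were Trim Galore, HISAT2, HTSeq, DESeq2 and Sscrofa11.1; the sources used here give neither versions nor the strand setting. The 5 closing lines that belong to no gene held 29.9% to 34.6% of reads and were kept out. Symbols were matched for 15029 of 31907 identifiers. Positions come from a RefSeq gene table of Sscrofa11.1, in which no other gene overlaps a member. No transcript lengths or sequences were available here, so levels are not compared between genes.

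Genes were kept by filterByExpr in edgeR 4.0.16 (R 4.3.3; minimum count 10, minimum total 15), scaled by TMM and tested with edgeR's quasi-likelihood test, robust, on sex and treatment; within-sex values and the interaction came from a model of 4 groups, and the weight slope was added to the first model. A gene counted as changed at an adjusted p under 0.05. Alternatives were DESeq2 1.42.0, limma-voom 3.58.1, other scaling and filters, other covariates and leaving out each animal. The fits were tested on simulated data. Marker scores are the mean log2 CPM (prior count 2) of a list. Permutation tests used 100000 resamples, two-sided; correlations permuted residuals, and were repeated with no terms removed. The ratio of VKORC1L1 to VKORC1 was planned and could not be computed.

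The members and lists were chosen with earlier results of these data known. Named are all members, up to 3 genes with the smallest p of each other list, and the 3 genes most like each member; a few genes that this rule names are not reported here. Replicate numbers follow deposition order and pair no animals.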

Additional observations from a re-analysis of the deposited data

Results flagged for a closer look

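MERTK in SHAM replicate 4 was at 31.26 CPM, while the other 5 SHAM males lay between 20.1 and 23.4 CPM. The gap to the nearest of them was 0.706 of the group's range, past the critical value of 0.625 for 6 animals. This was the 1 such animal in 28 groups of a gene, treatment and sex, and chance alone flags about 1 group in 20. Without SHAM replicate 4 the MERTK weight slope was 0.10 ± 0.03 log2 units per SD (edgeR unadjusted p = 0.00608, adjusted p = 0.472).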

How the results depend on the processing

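No member passed in any fit: over 32 fits of BDL against SHAM the adjusted p of the 7 members lay between 0.712 and 0.999, and over 27 fits of weight between 0.271 and 0.9999. DESeq2 called 1 gene for BDL against SHAM, 23 for sex and 8 for weight, none of them a member, where edgeR called 0, 9 and 0; without the count filter edgeR called 31 for sex. Leaving out 1 animal gave 0 calls for treatment and for the interaction, 7 to 26 for sex, and 0 to 9 for weight (9 without SHAM replicate 1, 3 without BDL replicate 4). Values near 0 changed sign. GGCX, BDL over SHAM, was -0.00105 with weight, -0.0118 with animal number and -0.00693 with the astrocyte score as a covariate (the last chosen after seeing the data), and -0.0201 to 0.0227 without 1 animal. GAS6 was -0.00124 with the oligodendrocyte score and -0.0203 to 0.0565 without 1 animal. MERTK in males was 0.00232 with RLE factors, 0.00280 without the filter, 0.00199 with DESeq2 and 0.00128 with limma-voom. Female over male, GAS6 was 0.00596 with limma-voom and PROS1 -0.00322 without the filter. The cause was not tested.

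Ranges that crossed 0 without 1 animal were, for BDL over SHAM, -0.068 to 0.019 for MERTK; in females -0.125 to 0.036 for MERTK; in males -0.071 to 0.048 for AXL, -0.072 to 0.091 for MERTK, -0.020 to 0.125 for TYRO3 and -0.060 to 0.013 for VKORC1L1; for the interaction -0.152 to 0.033 for MERTK and -0.038 to 0.106 for TYRO3; female over male -0.041 to 0.046 for GAS6, -0.011 to 0.083 for MERTK and -0.043 to 0.039 for PROS1; for weight -0.083 to 0.011 for PROS1. The ratios crossed too, at -0.068 to 0.0064 for AXL to MERTK and -0.105 to 0.0091 for GAS6 to PROS1. By Pearson, without 1 animal 0 to 1 of 21 pairs passed (GGCX with MERTK, without SHAM replicate 2) and 0 to 2 of 98 other relations (VKORC1L1 with astrocyte markers when BDL replicate 1, 7 or 8, or SHAM replicate 8, was left out; TYRO3 with granule neuron markers without SHAM replicate 8). By Spearman the ranges were 0 to 1 and 0 to 7, the first again GGCX with MERTK and the others relations of AXL, PROS1, TYRO3 and VKORC1L1. Intervals cover the spread between these animals only.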
